A study of Mus musculus with 37 samples.

Results

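The 37 tailbud libraries differed widely in how much endoderm RNA they held, and the 12 embryos with the most of it were compared with the 12 that had the least. The embryos were chosen by an endoderm RNA score, the log2 of 1 plus the summed level of Ttr, Apoa1, Apob and Afp in CPM (counts per 1000000 counts of that library). The embryos with the 12 highest scores (high embryos) and the 12 lowest scores (low embryos) make 24 of the 37, and the remaining 13 (intermediate embryos) served as a set that the grouping had not used. Because the 4 marker genes chose the embryos, their own difference between the groups is described without a test. For any other gene, a difference says that its RNA went with the marker RNA across embryos.

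The study asked whether maternal SMCHD1, which helps to keep genes silent, controls gene expression in the tissue that forms the axial skeleton. RNA-seq was performed on tailbuds cut below the last segmented somite of single embryos at embryonic day 8 to 8.5 with 6 to 11 somites, all of them F1 offspring of C57BL/6 and Cast parents from the MMTV-Cre colony. Smchd1wt embryos (21) had the genotype Smchd1 fl/+ and wild-type function, and Smchd1matΔ embryos (16) had the genotype Smchd1 del/+, came from oocytes without Smchd1 in mothers with MMTV-Cre, carried a deleted maternal allele and kept the paternal one. The high embryos were 7 Smchd1wt and 5 Smchd1matΔ (8 female, 4 male), the low embryos 8 Smchd1wt and 4 Smchd1matΔ (9 female, 3 male), and the intermediate embryos 6 Smchd1wt and 7 Smchd1matΔ.

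At this stage the embryo carries endoderm of different origins. Visceral endoderm surrounds the embryo before gastrulation and later lines the yolk sac, where it takes up maternal nutrients and secretes serum proteins and lipoproteins much as the liver does later. Definitive endoderm leaves the primitive streak, intercalates among the visceral endoderm cells and forms the gut tube. The tailbud itself holds the neuromesodermal progenitors and presomitic mesoderm that build the spinal cord and vertebrae.

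Ttr carries thyroid hormone and retinol-binding protein in serum, Apoa1 and Apob are the structural proteins of high and low density lipoproteins, and Afp is the albumin-like protein of fetal serum. Ttr (ENSMUSG00000061808, chromosome 18, 20665280 to 20674321, GRCm38) was at 105 to 287 CPM (median 150.3) in high and at 0.296 to 36.8 CPM (median 6.75) in low embryos. Apoa1 (ENSMUSG00000032083, chromosome 9, 46228580 to 46230466) was at 221 to 710 CPM (median 333) in high and 0.533 to 68.0 CPM (median 11.6) in low embryos. Both genes were below every high embryo in every low embryo.

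Apob (ENSMUSG00000020609, chromosome 12, 7977648 to 8016835) was at 433 to 1545 CPM (median 651) in high and 1.12 to 172 CPM (median 24.2) in low embryos. Afp (ENSMUSG00000054932, chromosome 5, 90490737 to 90508907) was at 230.3 to 884 CPM (median 406) in high and 1.60 to 95.0 CPM (median 27.3) in low embryos. The fitted log2 differences of the 4 genes were 4.07 for Ttr (SE 0.46), 4.56 for Apoa1 (SE 0.50), 4.24 for Apob (SE 0.53) and 4.24 for Afp (SE 0.52). The 4 genes moved together, with a Spearman correlation of 0.965 to 0.990 for the 6 pairs over the 37 embryos, given as a description since all 4 were read in the same libraries.

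The summed marker level ran from 3.55 CPM in Smchd1wt replicate 2 at 11 somites to 3282 CPM in Smchd1wt replicate 1 at 8 somites, a 924-fold span. The median sum was 1478 CPM in high and 70.6 CPM in low embryos. The groups were cut from a continuous range. The last embryo inside the high group scored 10.11 and the first outside it 10.00, while the last inside the low group scored 8.46 and the first outside it 8.59.

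**Figure D1:**
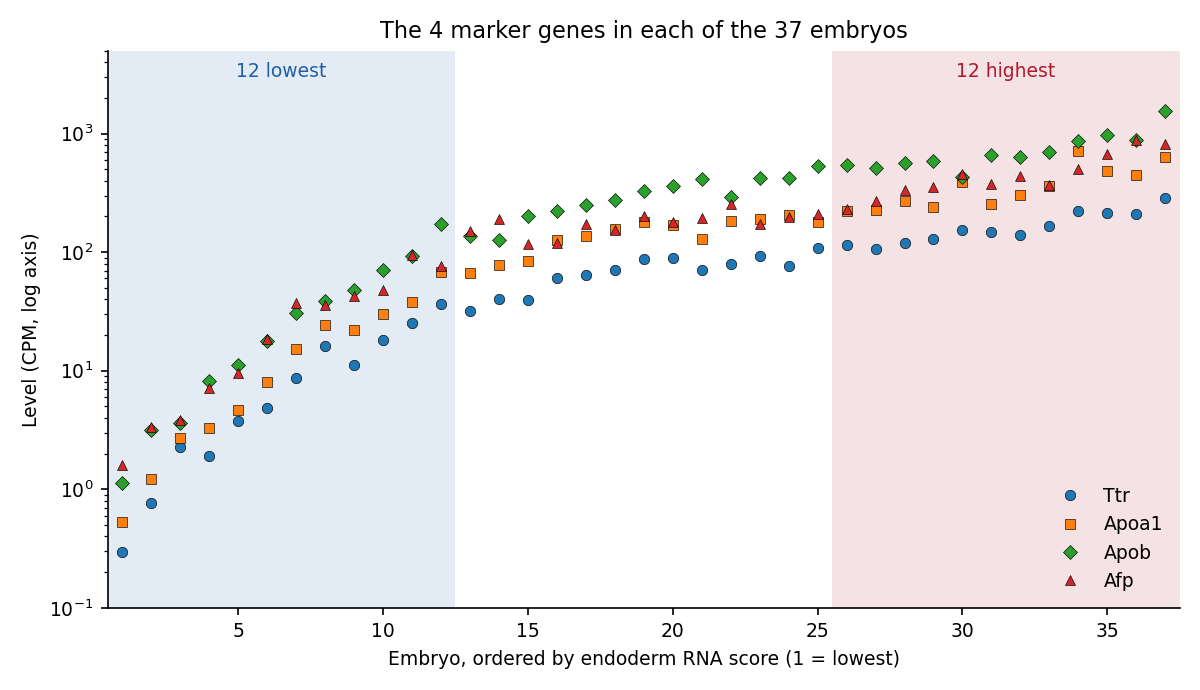
Levels of Ttr, Apoa1, Apob and Afp in CPM (log axis) in the 37 embryos, ordered by endoderm RNA score from lowest to highest, with the 12 lowest and 12 highest scores shaded. Each point is 1 gene in 1 embryo, and all 4 genes climb together, most steeply among the 12 lowest scores.

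Developmental stage and endoderm RNA content were not separate in these embryos. From 6 to 8 somites the score was 8.46 to 11.7 (SD 0.779, n = 20), and from 9 to 11 somites it was 2.19 to 11.2 (SD 2.76, n = 17). Of the 12 high embryos, 9 had 6 to 8 somites, and of the 12 low embryos, 11 had 9 to 11 somites. The later embryos were thus not uniformly poor in endoderm RNA but ranged from the lowest scores of the series to nearly the highest.

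The 3 high embryos of the later window were Smchd1matΔ replicate 1 at 9 somites (score 10.5), Smchd1wt replicate 1 at 10 somites (11.2) and Smchd1matΔ replicate 2 at 10 somites (11.2). Smchd1wt replicate 2 at 6 somites (8.46) was the only low embryo of the earlier window. Both genotypes showed the wide late range, 2.19 to 11.2 in 10 Smchd1wt and 3.25 to 11.2 in 7 Smchd1matΔ embryos. In the fit of all 37 embryos against somite number, with genotype and sex as covariates, Apob fell by 0.60 (log2) per somite (SE 0.18, adjusted p = 0.0153 by edgeR) and Ttr fell by 0.49 (SE 0.16, adjusted p = 0.0294). The slopes of Apoa1 (-0.47, SE 0.19, adjusted p = 0.0750) and Afp (-0.34, SE 0.17, adjusted p = 0.173) did not pass the threshold of 0.05, against a background of 9.39% of 15575 genes called falling and 9.21% called rising.

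**Figure D2:**
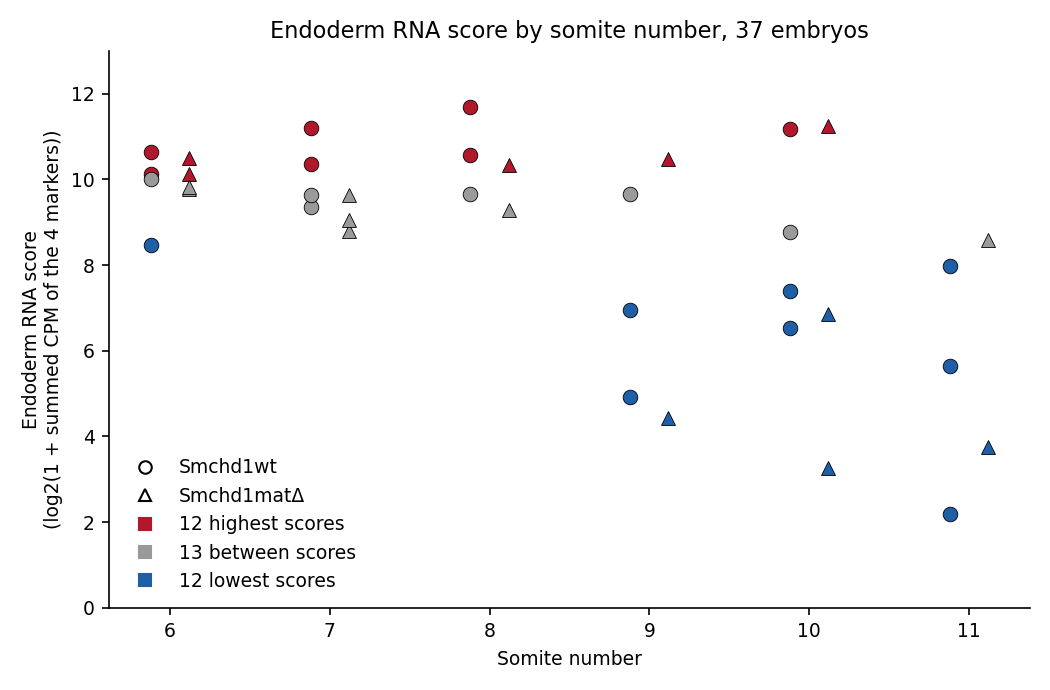
Endoderm RNA score, log2(1 + summed CPM of the 4 markers), against somite number for 21 Smchd1wt (circles) and 16 Smchd1matΔ embryos (triangles), coloured by group. Scores stay between 8.46 and 11.7 up to 8 somites and spread from 2.19 to 11.2 from 9 somites on.

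The high libraries held 917249 to 15495029 counts and the low libraries 7617888 to 30190194. Smchd1matΔ replicate 3 at 6 somites, a high embryo, was the shallowest library of the series, and Smchd1matΔ replicate 2 at 6 somites, also high, had 1.82% of its counts at a ribosomal RNA locus against at most 1.28% in the low libraries. Smchd1 itself was at 104 to 197 CPM (median 151) in Smchd1wt and 65.3 to 108 CPM (median 88.5) in Smchd1matΔ embryos, in the direction of the labels with a slight overlap. In bulk tissue, fewer cells of a type and less RNA per cell cannot be told apart.

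High embryos differed from low embryos in many genes, and the differences were far from symmetric in size. With somite number and genotype as covariates, 1441 of 15954 genes were higher (9.03%) and 791 were lower (4.96%) in high embryos. The higher genes had a median log2 difference of 0.75, with 604 above 1, 328 above 2 and 106 above 4. The lower genes had a median of -0.31, and 10 fell by more than 1. The 328 genes above 2, with the 4 markers, took 0.423 to 1.24% of all counts in high embryos and 0.0325 to 0.181% in low embryos.

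Few genes separated the groups completely. The lowest high embryo lay above the highest low embryo for 183 genes (1.15% of those tested), and the opposite held for 4 genes (0.0251%). The number of calls varied with the covariates and with the embryos used. With sex added, 946 genes were higher and 248 lower. With each somite number as its own level, 929 genes were higher (5.66%) and 249 lower (1.52%), together 7.18% of 16408, and without the 3 high embryos of 9 and 10 somites 450 were higher and 51 lower.

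Ranked by adjusted p, the leading 12 among the higher genes were Creb3l3, F10, Soat2, Aqp3, Gipc2, Rbp4, Mttp, Lgmn, Cdhr2, 2610528J11Rik, Abcc2 and Reep6. Their log2 differences were 2.47 to 5.86, with adjusted p-values of 1.35e-11 to 1.73e-10. All 12 separated the groups without overlap (against 1.15% of genes tested), which largely follows from picking them in this comparison.

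Creb3l3, a membrane-bound transcription factor of lipid metabolism in liver and gut, was at 5.68 to 34.2 CPM (median 8.91) in high and 0 to 0.884 CPM (median 0.350) in low embryos. Its log2 difference was 5.63 (SE 0.34, adjusted p = 1.35e-11). Cdhr2, a cadherin of the microvillus brush border, had the largest difference of the 12, with 10.3 to 62.1 CPM (median 18.6) in high and 0 to 1.84 CPM (median 0.368) in low embryos (log2 difference 5.86, SE 0.44). The low level of both lay close to the detection limit, and 1 low embryo had no Creb3l3 and 2 had no Cdhr2 counts.

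F10, coagulation factor X, was at 2.09 to 11.0 CPM in high and 0.131 to 0.825 CPM (median 0.320) in low embryos (log2 difference 4.45, SE 0.28). Its low level also lay close to the detection limit. Creb3l3, Cdhr2 and F10 passed the count filter mainly through the high embryos, so their calls as higher add little. Abcc2, which exports conjugated compounds across the apical membrane, was at 8.78 to 47.7 CPM in high and 0.430 to 5.38 CPM in low embryos (4.14, SE 0.31). Aqp3, a channel for water and glycerol, was at 11.7 to 40.4 CPM in high and 1.24 to 5.01 CPM in low embryos (3.41, SE 0.24). Gipc2 (3.83) and Reep6 (3.16), an endoplasmic reticulum membrane protein, were of like size, as was 2610528J11Rik (3.88). Exons of Gipc2 and Mttp overlap another counted gene, so that their counts may include its reads.

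Genes of lipoprotein assembly and serum protein secretion, a list of 24 besides the 4 markers, were higher almost throughout. Of 21 members that passed the count filter, 18 were higher (against 9.03% of all genes) and 0 lower. Their median log2 difference was 4.0 against -0.01 over all genes tested. Rbp4, the serum carrier of retinol, was at 128 to 413 CPM (median 201) in high and 3.49 to 30.2 CPM (median 10.6) in low embryos, a log2 difference of 4.44 (SE 0.32, adjusted p = 1.62e-10). Soat2, which esterifies cholesterol for export, was at 6.54 to 46.7 CPM (median 16.7) in high and 0 to 2.004 CPM (median 0.901) in low embryos (5.11, SE 0.36, adjusted p = 1.25e-10).

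Mttp, which loads lipid onto apolipoprotein B, was at 61.1 to 191 CPM in high and 8.86 to 33.2 CPM in low embryos (log2 difference 2.91, SE 0.21, adjusted p = 1.64e-10). Apoe, an apolipoprotein that binds lipoprotein receptors, was at 239.8 to 857 CPM in high and 15.5 to 91.4 CPM in low embryos (3.56, SE 0.27, adjusted p = 2.20e-10). The fibrinogen chains Fga (5.16), Fgb (4.41) and Fgg (4.25), prothrombin F2 (4.38) and the retinol and iron carriers of serum were all among the 18. The 3 tested members that were not called were Ahsg (-0.46), Vtn (-0.21) and Ttpa (-0.28), and 3 did not pass the filter, among them Alb, which reached at most 0.0941 CPM in any low or high embryo.

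The uptake machinery of visceral endoderm showed the same direction. Of 15 listed genes, all of which passed the filter, 14 were higher (against 9.03% of all genes) and 0 lower, with a median log2 difference of 2.57. Among them Slc5a11, nearly absent from low embryos, passed the filter through the high ones. Amn, the membrane anchor of the cubilin receptor, was at 20.1 to 65.3 CPM (median 23.6) in high and 0.237 to 4.86 CPM (median 0.863) in low embryos (4.77, SE 0.37, adjusted p = 3.04e-10). Cubn, the receptor itself, was at 146 to 617 CPM (median 257) in high and 0.710 to 65.8 CPM (median 9.67) in low embryos (4.52, SE 0.49, adjusted p = 5.94e-08).

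The lysosomal proteases Lgmn and Ctsh belong to this list, and Lgmn was at 158 to 470 CPM in high and 38.5 to 94.9 CPM in low embryos (log2 difference 2.47, SE 0.18, adjusted p = 1.68e-10). Ctsh was at 44.1 to 147 CPM in high and 5.15 to 20.2 CPM in low embryos (3.01, SE 0.23, adjusted p = 3.00e-10). Folr1, a folate receptor, was at 19.9 to 52.5 CPM in high and 1.20 to 8.27 CPM in low embryos (3.30, SE 0.26, adjusted p = 4.09e-10). Stra6, a receptor for retinol-binding protein, did not pass the threshold, at 12.5 to 39.2 CPM in high and 19.8 to 32.0 CPM in low embryos (-0.33, SE 0.18, adjusted p = 0.232).

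Among the transcription factors of endoderm, 5 of 11 that passed the filter were higher (against 9.03% of all genes) and 0 lower (15 listed). Over the alternatives, 3 to 6 were higher. Hnf4a, the nuclear receptor that drives visceral endoderm and liver genes, was at 38.7 to 129.8 CPM (median 50.9) in high and 0.118 to 16.7 CPM (median 2.69) in low embryos, with no overlap (log2 difference 4.27, SE 0.40, adjusted p = 6.89e-09). Gata4 was at 8.32 to 32.2 CPM in high and 0.710 to 9.13 CPM in low embryos (1.78, SE 0.34, adjusted p = 0.000489).

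Sox17, which specifies definitive endoderm, was at 7.33 to 15.3 CPM (median 11.7) in high and 5.39 to 14.5 CPM (median 9.39) in low embryos (log2 difference 0.11, SE 0.16, adjusted p = 0.683). Foxa2, which marks definitive endoderm, node and notochord, was at 6.41 to 13.8 CPM (median 10.7) in high and 5.12 to 18.5 CPM (median 8.76) in low embryos (0.12, SE 0.21, adjusted p = 0.763). For both, the high and low embryos overlapped over most of their range.

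HNF4 and GATA proteins bind short motifs, and the promoters of higher genes were searched for letters such as theirs because Hnf4a and Gata4 were among the genes called. Of the 328 genes above a log2 difference of 2, 235 had a RefSeq promoter window (250 bases before to 50 after the start, GRCm38.p6). CAAAGGTCA, only part of a direct repeat read by HNF4, was searched on either strand and is labelled HNF4 direct repeat below. It stood in 10 of these windows (4.26%), in 0.544% of 27025 genes with a window and in 0.444% of the 11481 tested ones. CAAAGTCCA stood in 6 (2.55%) against 0.555% and 0.531%. AGATAA, read by GATA factors, stood in 30 (12.8%) against 12.7% and 7.90%. These shares describe letters and do not show binding, and none of the motifs contains another. The window of Slc5a11, a listed uptake gene with a match, is given to show the letters in place, as the 150 bases before the start, with the matched letters in capitals, read 5′ to 3′ on the strand of the gene (RefSeq, GRCm38.p6).
Slc5a11, HNF4 direct repeat on the other strand, chr7:123214716-123214865, plus strand: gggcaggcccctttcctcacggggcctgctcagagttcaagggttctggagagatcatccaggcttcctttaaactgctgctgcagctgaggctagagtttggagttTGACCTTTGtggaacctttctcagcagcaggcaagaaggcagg

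Counted from the gene start, the match in Slc5a11 began at -43. Slc5a11, a transporter of inositol, was at 0 to 5.07 CPM in high and 0 to 0.295 CPM in low embryos, with 8 low embryos at 0. It stood near the detection limit in low embryos and passed the count filter through the high ones, so its call as higher adds little.

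Some genes of definitive and hindgut endoderm were higher too, and others were not called. Of 18 tested members (21 listed), 7 were higher (against 9.03% of all genes) and 0 lower, with a median log2 difference of 0.21. Over the alternatives, 2 to 8 were higher. Cldn6, a tight junction protein, was at 113 to 182 CPM in high and 75.6 to 104 CPM in low embryos (0.67, SE 0.09, adjusted p = 2.40e-06), and Tmprss2, a membrane protease of epithelia, was at 85.9 to 190.3 CPM in high and 53.4 to 88.5 CPM in low embryos (1.04, SE 0.13, adjusted p = 1.00e-06).

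Ihh, a hedgehog ligand made by visceral and gut endoderm, was at 7.11 to 17.6 CPM in high and 4.01 to 7.99 CPM in low embryos (log2 difference 1.19, SE 0.18, adjusted p = 2.15e-05). Cdh1, the epithelial cadherin, was at 77.3 to 129.99 CPM in high and 42.6 to 82.7 CPM in low embryos (0.57, SE 0.11, adjusted p = 0.000443). Epcam, an adhesion protein of definitive and surface epithelia, was at 52.7 to 70.9 CPM in high and 48.5 to 70.9 CPM in low embryos (0.10, SE 0.07, adjusted p = 0.411). Trh, a gene of the hindgut, was at 0.825 to 17.2 CPM in high and 1.12 to 9.98 CPM in low embryos (-0.23, SE 0.34, adjusted p = 0.709). Members of this list thus fell on both sides of the threshold, with Ihh, Cdh1, Cldn6 and Tmprss2 called and Epcam and Trh not.

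**Figure D3:**
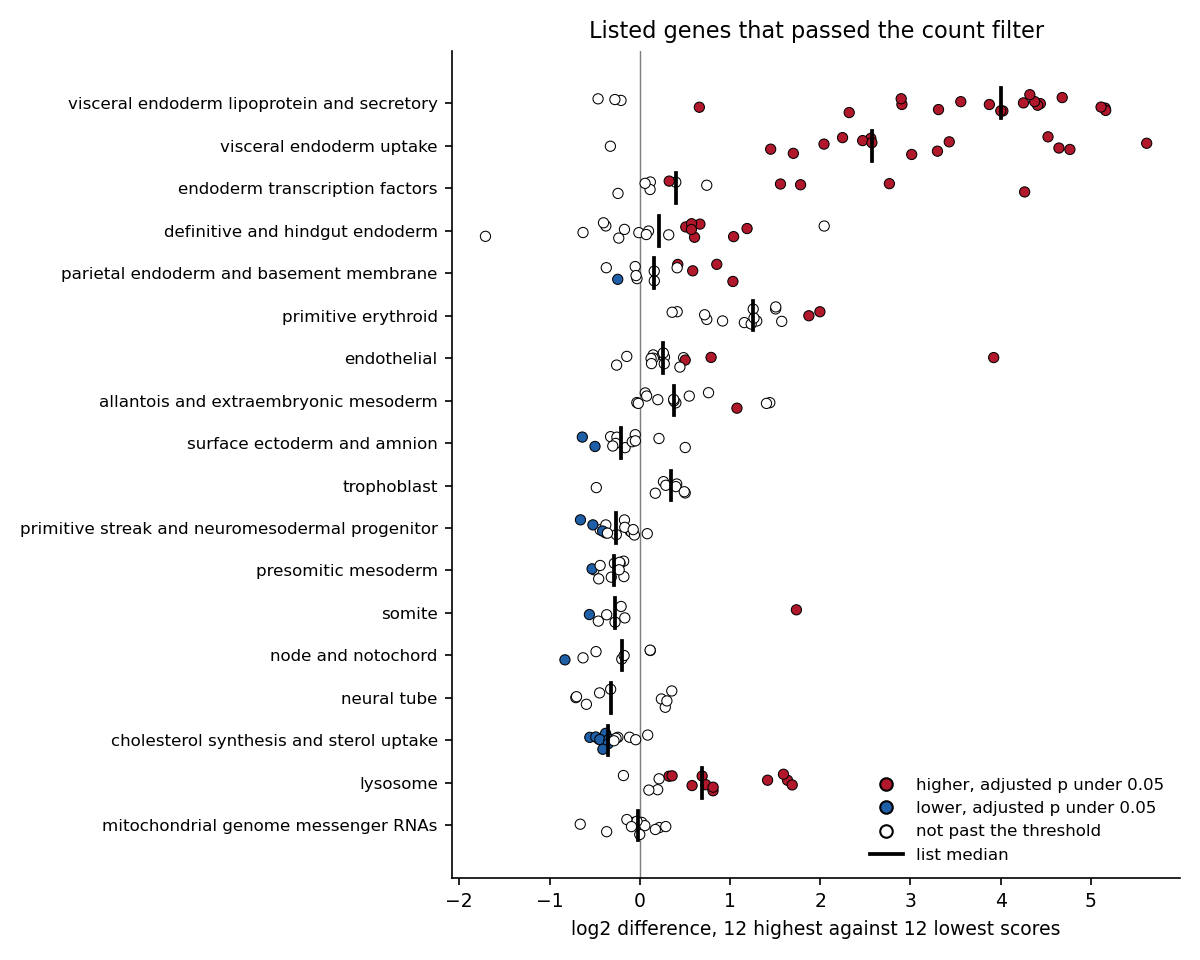
Log2 difference between high and low embryos for each listed gene that passed the count filter, by list. Each point is 1 gene, red or blue where the adjusted p is under 0.05 (edgeR), and bars mark list medians, which are 4.0 and 2.57 in the visceral endoderm lists and within 1.26 of 0 in the other 16.

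Lysosomal genes were higher in high embryos as well. Of 15 listed and tested, 11 were higher (against 9.03% of all genes) and 0 lower, with a median log2 difference of 0.69. Ctsz, a cathepsin, was at 88.2 to 242 CPM (median 114) in high and 35.9 to 59.3 CPM (median 43.6) in low embryos (1.69, SE 0.14, adjusted p = 5.87e-10). Ctsb (1.64), Neu1 (1.59), a sialidase, and Ctsl (1.42) were likewise higher without overlap between the groups, with adjusted p-values of 1.64e-09 to 2.14e-09. Npc1, Npc2, Psap and Lamp2 were not called, with differences of -0.18 to 0.21.

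Of 12 genes of parietal endoderm and basement membrane, 4 were higher (against 9.03% of all genes) and 1 was lower (against 4.96%). Over the alternatives, 0 to 5 were higher. The collagen genes Col4a1 (log2 difference 0.42, SE 0.09, adjusted p = 0.00250) and Col4a2 (0.59, SE 0.11, adjusted p = 0.000269), which lie head to head, were higher. Pth1r, a receptor of parietal endoderm, was at 11.99 to 33.7 CPM in high and 7.32 to 16.4 CPM in low embryos (1.03, SE 0.16, adjusted p = 1.89e-05), and Sparc, a matrix protein, was at 79.6 to 233 CPM against 41.3 to 90.6 CPM (0.85, SE 0.16, adjusted p = 0.000497). The laminin chain Lamc1 was lower (-0.24, SE 0.08, adjusted p = 0.0368). The laminin chains Lama1 (-0.03) and Lamb1 (-0.05) were not called.

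RNA of blood cells, which form in the yolk sac beside visceral endoderm, varied widely within both groups. Of 15 primitive erythroid genes, 2 were higher (against 9.03% of all genes) and 0 lower, with a median log2 difference of 1.26. None was higher with somite number as a factor or without covariates, and the count ran from 0 to 13 over the 22 alternatives, with 13 within 9 and 10 somites. Gata1 was at 0 to 13.2 CPM in high and 0 to 8.58 CPM in low embryos (1.87, SE 0.61, adjusted p = 0.0377), and Cited4 at 0.242 to 11.6 CPM against 0 to 12.5 CPM (1.996, SE 0.55, adjusted p = 0.0149). The embryonic globin Hbb-bh1 was at 5.81 to 2316 CPM (median 69.8) in high and 28.5 to 2124 CPM (median 319) in low embryos, with a covariate-adjusted log2 difference of 1.57 (SE 0.58, adjusted p = 0.0672). For Hbb-bh1 the medians and the adjusted difference pointed in opposite directions. With somite number over the 37 embryos, 12 of the 15 erythroid genes rose (against 9.21% of all genes). Hbb-y, the other leading globin, gave 0.92 (SE 0.60, adjusted p = 0.327).

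With the summed globin level as a further covariate, 18 of the lipoprotein genes and 14 of the uptake genes were higher, 0 erythroid genes were higher and 1 was lower, and 1301 genes were higher and 726 lower in all. The part of blood RNA in other differences was not tested.

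Endothelial genes were mostly not called, with 3 of 15 higher (against 9.03% of all genes) and 0 lower. Over the alternatives, 1 to 6 were higher. Lyve1, a hyaluronan receptor of yolk sac and lymphatic endothelium and of macrophages, stood apart, at 0 to 55.7 CPM (median 11.4) in high and 0.414 to 4.66 CPM (median 1.88) in low embryos (log2 difference 3.92, SE 0.43, adjusted p = 7.66e-08). The high embryo with no Lyve1 count was the shallowest library, where 0 counts allow up to 3.27 CPM (3 counts). Egfl7 (0.50, SE 0.16, adjusted p = 0.0303) and Cldn5 (0.79, SE 0.25, adjusted p = 0.0346) were higher with overlapping groups. The defining endothelial genes Kdr (-0.14, SE 0.18, adjusted p = 0.642) and Cdh5 (0.15, SE 0.16, adjusted p = 0.582) were not called.

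**Figure D4:**
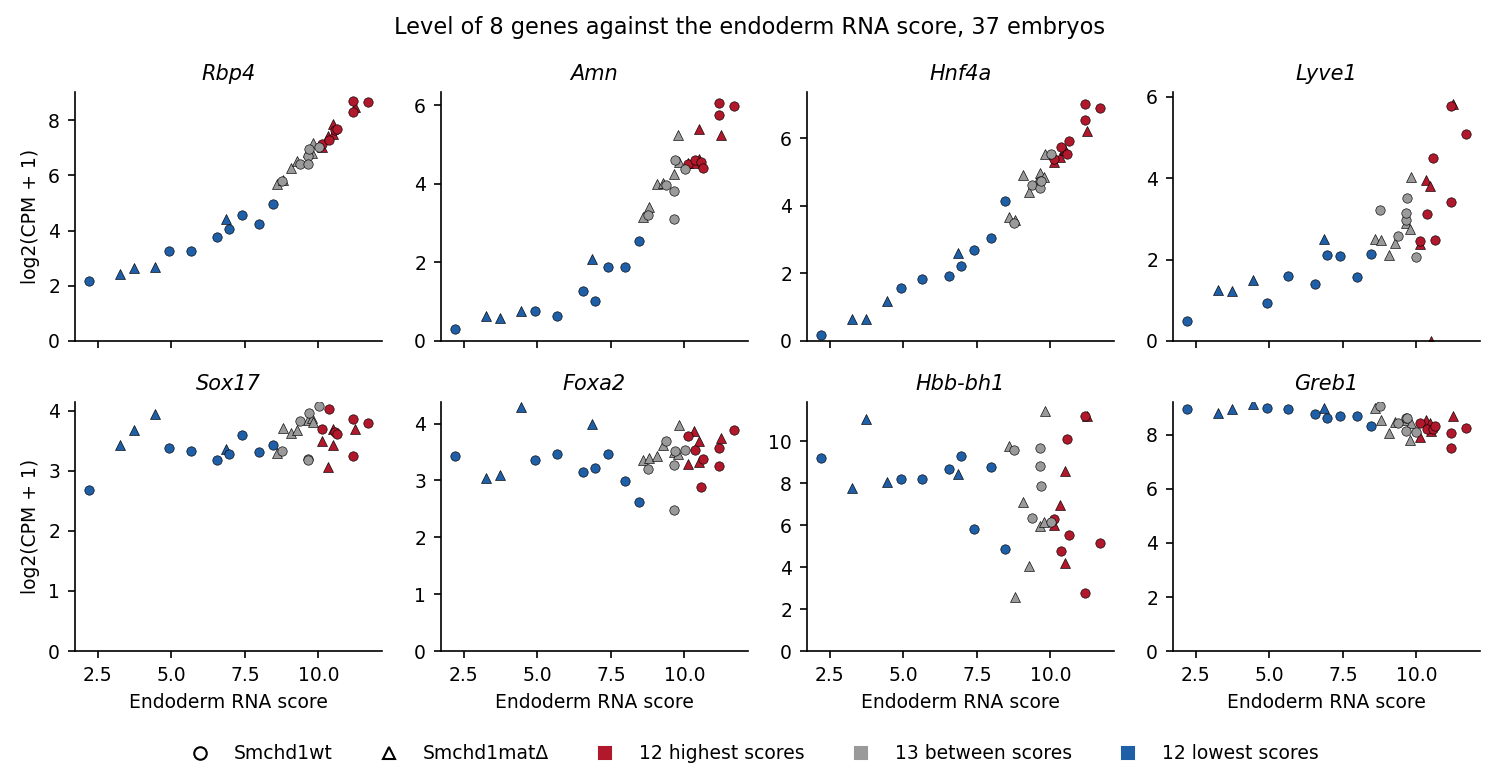
Level of 8 genes as log2(CPM + 1) against the endoderm RNA score in the 37 embryos (circles Smchd1wt, triangles Smchd1matΔ), coloured by group. Rbp4, Amn and Hnf4a climb through all 3 groups, Sox17 and Foxa2 stay level, Hbb-bh1 scatters up to 2725 CPM, and Lyve1 is at 0 in 1 high embryo.

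Markers of other tissues next to the tailbud gave small counts, where 9.03% of all genes were higher and 4.96% lower. Over the alternatives, 0 to 5 allantois and 0 to 3 trophoblast genes were higher, and 0 to 3 surface ectoderm genes were lower. Of 13 genes of allantois and extraembryonic mesoderm, 1 was higher and 0 were lower, with Tbx4 at a log2 difference of 0.55 (SE 0.61) and Tbx2 at 1.44 (SE 0.50, adjusted p = 0.0516). Of 12 surface ectoderm and amnion genes, Grhl3 (-0.64, SE 0.15, adjusted p = 0.00429) and Gata3 (-0.50, SE 0.17, adjusted p = 0.0492) were lower and 0 were higher, with Tfap2a at -0.05 and Tfap2c at -0.32. Of 8 tested trophoblast genes, 0 were called between high and low embryos with these covariates by edgeR or DESeq2, and 1 had an unadjusted p under 0.05. The defining trophoblast gene Elf5 was at 0 to 2.93 CPM in high and 0.0709 to 1.05 CPM in low embryos, and Gcm1 did not pass the filter.

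Genes of the tailbud itself were mostly not called. Of 15 genes of the primitive streak and of neuromesodermal progenitors, 3 were lower (against 4.96% of all genes) and 0 higher, with a median log2 difference of -0.26. With the score as a number 9 were lower in Smchd1wt and 0 in Smchd1matΔ embryos, a difference not tested for the list, 1 was lower with sex added and 0 without the high embryos of 9 and 10 somites. Greb1 was at 180.03 to 419 CPM (median 303) in high and 324 to 559.99 CPM (median 472) in low embryos (-0.52, SE 0.12, adjusted p = 0.00354), Mixl1 gave -0.66 (SE 0.20, adjusted p = 0.0308) and Fgf17 gave -0.41 (SE 0.13, adjusted p = 0.0362). T, the transcription factor that defines the streak, was at 99.7 to 289 CPM (median 219) in high and 149 to 353 CPM (median 239) in low embryos (-0.44, SE 0.17, adjusted p = 0.0844), and Sox2 gave -0.38 (SE 0.22). Every embryo expressed T, the marker of the labelled tissue.

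The presomitic mesoderm list had 1 of 11 tested genes lower, against 4.96% of all genes. This was the Wnt agonist Rspo3 (log2 difference -0.53, SE 0.16, adjusted p = 0.0258). The defining genes Tbx6 (-0.28, SE 0.20) and Msgn1 (-0.18, SE 0.21) were not called. Of 7 tested somite genes, Ripply1 was higher (1.74, SE 0.57, adjusted p = 0.0389) at no more than 1.77 CPM and Pax3 lower (-0.56, SE 0.15, adjusted p = 0.0127), with Meox1 at -0.27 and Tcf15 at -0.46. Of 7 tested node and notochord genes, Noto, a transcription factor of the node, was lower, at 1.65 to 11.1 CPM in high and 6.88 to 13.6 CPM in low embryos (-0.83, SE 0.25, adjusted p = 0.0225). Of 9 tested neural tube genes 0 were called with these covariates by edgeR or DESeq2, and 1 had an unadjusted p under 0.05. The 9 included Irx3 (0.35, SE 0.19) and Ncam1 (-0.45, SE 0.19), the most abundant. The defining genes were Pax6 (-0.71, SE 0.37) and Sox1 (-0.59, SE 0.55). Over the alternatives, 0 to 5 presomitic mesoderm, 0 to 1 somite, 0 to 2 node and notochord and 0 to 2 neural tube genes were lower. Foxj1 did not pass the filter.

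Calls among cholesterol synthesis and sterol uptake genes varied with the covariates and with the embryos used. Of 15, 9 were lower (against 4.96% of all genes) and 0 higher, with a median log2 difference of -0.35. With somite number as a factor 0 were lower, with sex added 2, in Smchd1matΔ embryos with the score as a number 0, and without covariates 13. Sqle, an enzyme of the pathway, was at 65.4 to 122 CPM (median 83.9) in high and 94.5 to 161 CPM (median 144) in low embryos (-0.37, SE 0.09, adjusted p = 0.00393). Hmgcs1 (-0.55, SE 0.13, adjusted p = 0.00396) and Idi1 (-0.49, SE 0.13, adjusted p = 0.0104) were lower with overlapping groups. All 15 of these genes rose with somite number over the 37 embryos (against 9.21% of all genes). When high and low embryos were compared within 9 and 10 somites by edgeR, 0 were called and 5 had an unadjusted p under 0.05. Of 12 mRNAs of the mitochondrial genome, 0 were called with stage and genotype as covariates by edgeR or DESeq2, and 0 had an unadjusted p under 0.05. The 2 most abundant, mt-Co1 and mt-Cytb, were at 0.00 (SE 0.16) and 0.17 (SE 0.16). Without covariates 1 was higher.

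Ranked in the same way, the leading 10 among the lower genes were Zbtb1, Gbe1, Cyp39a1, Kdm3a, Fbxl20, Tenm3, Adgra3, Megf9, Bcl2l11 and Cxadr. They differed by -0.68 to -0.29, with adjusted p-values of 7.10e-05 to 0.000787, so their differences were small beside those of the higher genes. Zbtb1, a zinc finger transcription factor, was at 39.4 to 47.3 CPM (median 42.1) in high and 44.3 to 64.0 CPM (median 52.9) in low embryos (-0.41, SE 0.07). Bcl2l11, which promotes apoptosis, was at 23.4 to 34.0 CPM in high and 35.4 to 42.0 CPM in low embryos (-0.42, SE 0.08) and was the only one of the 10 whose groups did not overlap.

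Gbe1, the glycogen branching enzyme, was at 21.9 to 31.3 CPM in high and 30.6 to 40.1 CPM in low embryos (log2 difference -0.46, SE 0.08). Cyp39a1, an oxysterol hydroxylase of bile acid synthesis, was at 6.13 to 15.3 CPM against 10.5 to 16.9 CPM (-0.67, SE 0.12). Megf9 (-0.68, SE 0.13), Kdm3a, a histone demethylase (-0.50, SE 0.09), Cxadr, a cell junction protein (-0.50, SE 0.10), Fbxl20 (-0.43), Tenm3 (-0.43) and Adgra3 (-0.29) overlapped between the groups. Exons of Cxadr overlap those of Btg3.

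To compare embryos of like stage, the 3 high and 7 low embryos of 9 and 10 somites were fitted alone, a comparison chosen after the data had been seen. There 1187 of 15754 genes were higher (7.53%) and 209 lower (1.33%). The visceral lists had the same counts, with 18 lipoprotein and 14 uptake genes higher, and the 12 leading higher genes were all called with log2 differences of 2.81 to 6.33. Rbp4 was at 233 to 413 CPM in the 3 high and 4.31 to 22.5 CPM in the 7 low embryos, and Hnf4a at 49.6 to 129.8 CPM against 0.563 to 5.51 CPM. All 10 leading lower genes pointed the same way, and 5 of them were called. The leading genes had been picked in groups that include these same embryos, so their calls here are not an independent check.

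Of the erythroid genes, 13 of 15 were higher within 9 and 10 somites, with a median log2 difference of 1.99, and 3 allantois genes were higher against 1 in the full comparison. Trh (-1.27, adjusted p = 0.0374) and Shh (-0.90, adjusted p = 0.0343) were lower there, as was T (-0.68, adjusted p = 0.00996). The count of calls hung on single embryos. It was 467 (453 higher, 14 lower) without Smchd1wt replicate 1 at 10 somites, 4531 (2365 higher, 2166 lower) without Smchd1matΔ replicate 2 at 10 somites and 2439 without Smchd1matΔ replicate 1 at 10 somites, and 963 to 1153 without each of the other 7. Without Smchd1wt replicate 1 at 10 somites, 18 lipoprotein genes, 12 uptake genes and the 12 leading higher genes were called, but 1 endoderm transcription factor, 2 erythroid genes and 0 of the 10 leading lower genes.

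The 13 intermediate embryos, whose scores span only 8.59 to 10.0, gave a check in samples the groups had not used. There the slope of each gene on the score was fitted with somite number and genotype as covariates. Of 15695 genes, 2 passed the adjusted threshold (0.0127%), both with a positive slope. Rbp4 rose by 1.17 (log2) per unit of score (SE 0.14, adjusted p = 0.00602), from 50.8 to 144 CPM (median 90.2), and Cubn rose by 1.29 (SE 0.16, adjusted p = 0.00602), from 61.1 to 194 CPM (median 121). Without covariates 70 genes passed, and by DESeq2 24 did.

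Most genes called higher between the groups leaned the same way in the intermediate embryos. Of 1371 such genes tested there, 1183 (86.3%) had a positive slope, and of 267 with a log2 difference above 2, 256 (95.9%) did, against 53.2% of all genes. Of 786 genes called lower, 172 (21.9%) had a positive slope. An unadjusted p under 0.05 by edgeR in the same direction was found for 164 of the 1371 higher genes but only 3 of the 786 lower ones. The 12 leading higher genes had slopes of 0.67 to 2.48, all 12 with an unadjusted p under 0.05 (1.37% of all genes), and the 10 leading lower genes had slopes of -0.41 to 0.09, with 0 under 0.05. Positive slopes were found for 19 of 20 lipoprotein, 14 of 14 uptake, 11 of 11 transcription factor, 14 of 15 lysosomal and 15 of 15 erythroid genes, and also for 13 of 16 definitive and hindgut and 11 of 12 parietal endoderm genes. Presomitic mesoderm, with 9 of 12 positive, and neural tube, with 7 of 9, had negative medians in the comparison of high and low, and 3 of 15 streak genes were positive. The part of blood RNA in the slopes was not tested.

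**Figure D5:**
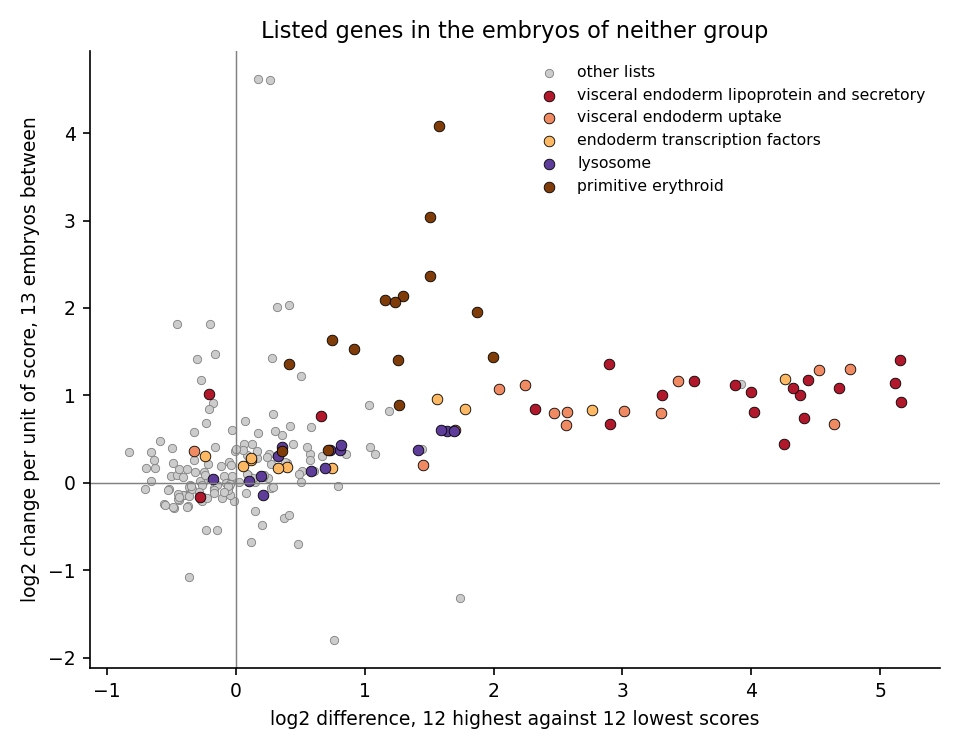
Log2 difference between high and low embryos (horizontal axis) against the log2 change per unit of score in the 13 intermediate embryos (vertical axis) for each listed gene tested in both. Each point is 1 gene coloured by list, and 19 of 20 lipoprotein and 14 of 14 uptake genes have a positive slope, with all 15 erythroid genes positive as well.

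Endoderm RNA content was not shown to differ by genotype. Over all 37 embryos, adjusted for sex and for each somite number as its own level, the log2 difference of Smchd1matΔ from Smchd1wt embryos was 0.15 for Ttr (SE 0.50), 0.19 for Apoa1 (SE 0.58), 0.19 for Apob (SE 0.54) and 0.24 for Afp (SE 0.54), with adjusted p-values of 0.990 to 0.999. Among all 15978 genes 2 were called (0.0125%), 1 higher (0.00626%) and 1 lower (0.00626%), the latter Smchd1, and 906 had an unadjusted p under 0.05 (5.67%). None of the listed visceral endoderm genes was called, with list medians of 0.11 and 0.02, and 0 of them had an unadjusted p under 0.05. With these standard errors, differences near 1 on the log2 scale were not detectable.

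The relation of genes to the score was also compared between genotypes. With the score as a number, 1199 of 15663 genes rose and 600 fell with it in the 21 Smchd1wt embryos. In the 16 Smchd1matΔ embryos, 313 of 15762 rose and 2 fell. The interaction of score and genotype was called for 0 of 16261 genes by edgeR, and 1201 of them had an unadjusted p under 0.05. Of the lipoprotein genes 17 were called in each genotype, and of the uptake genes 14 in Smchd1wt and 12 in Smchd1matΔ embryos.

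When the score was added to the fit on somite number, 556 of 15978 genes rose and 419 fell with somite number. Without it, 1435 (9.21%) rose and 1463 (9.39%) fell of 15575. Of the tested visceral endoderm genes, 9 of 20 lipoprotein and 10 of 15 uptake genes fell with somite number in the fit without the score (against 9.39% of all genes).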

How the data were processed

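RNA-seq was performed on 37 single-embryo tailbuds. Per the methods, the authors trimmed reads with Trim Galore 0.4.4, mapped them with HISAT2 2.0.5 to GRCm38.p6 and quantitated genes in SeqMonk, and they deposited raw counts per gene. Stranded and unstranded kits were both used, and which library had which is not given in the sources used here, so genes with overlapping exons are uncertain. Of 35591 rows, 49 with a repeated identifier were dropped. Libraries held 917249 to 80666472 counts, which limits low genes most in the shallowest. The deposited Hox table and the authors' own comparison table were not used here.

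Printed levels are CPM of the column total. Differences came from edgeR 4.0.16 (quasi-likelihood test, TMM, minimum count 10, R 4.3.3), with Benjamini-Hochberg adjustment over all genes tested except the 4 markers and a threshold of 0.05. The fit of high against low used somite number and genotype. DESeq2 1.42.0, other normalizations, filters, covariates and groupings were alternatives. The scripts were tested on simulated data. The embryos, gene lists and tests were chosen with earlier results of these data known. The named genes were the markers, the 12 higher and 10 lower genes of smallest adjusted p, and for each of 18 lists the genes with the smallest adjusted p and the defining ones. A few further listed genes were chosen after their values were seen. Results for some genes and for 1 further promoter motif that was searched are not reported here, so the motif shares printed are not ranked.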

Additional observations from a re-analysis of the deposited data

Results flagged for a closer look

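Samples that stood far from the others of their genotype and somite number were looked for in groups of 4 or more, for the markers, the leading genes and the globin sum. Of 112 tests 25 were past the limit. The markers set the score, and the leading genes were picked for going with it. Their flags are therefore not independent, and the count cannot be set against a chance rate. Most were 1 embryo, Smchd1wt replicate 1 at 10 somites, which had 223 CPM of Ttr (next 39.97), 710 of Apoa1 (78.4) and 859 of Apob (126).

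The same embryo had 34.2 CPM of Creb3l3, 11.0 of F10, 46.7 of Soat2, 38.3 of Aqp3, 47.4 of Gipc2 and 413 of Rbp4. It also had 158 CPM of Mttp, 470.3 of Lgmn, 38.999 of Cdhr2, 36.6 of 2610528J11Rik, 42.7 of Abcc2 and 44.3 of Reep6, all above the others of its group, and 6.13 CPM of Cyp39a1, below them.

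Smchd1wt replicate 2 at 6 somites had 0.788 CPM of Creb3l3, below the others (5.68 or more), and 58.5 of Zbtb1 and 15.2 of Cyp39a1, above them. Summed globin was 3107 CPM in Smchd1matΔ replicate 4 at 6 somites (next 127) and 1414 CPM in Smchd1wt replicate 2 at 7 somites (next 151), and the latter had 16.6 CPM of Cyp39a1. Cdhr2 was at 62.1 CPM in Smchd1matΔ replicate 3 at 6 somites, the shallowest library. Fbxl20 was at 12.2 CPM in Smchd1matΔ replicate 1 at 6 somites, below the others, and Kdm3a at 144 CPM in Smchd1wt replicate 3 at 7 somites, above them.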

How the results depend on the processing

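The 2232 genes called between high and low embryos became 1178 with somite number as a factor, 1194 with sex added, 1107 with 18 against 18 embryos, 1129 with the score as a number in 37 embryos and 315 in the 16 Smchd1matΔ embryos. They became 1396 among embryos of 9 and 10 somites and 501 without the high embryos of those stages, both chosen after the data had been seen. Apart from the replicate block, the other alternatives gave 1799 to 2820. The share of higher calls, 64.6%, was 52.3% without covariates, 74.5% with 8 against 8 embryos, 78.9% with somite number as a factor, 79.2% with sex added, 85.4% with 18 against 18, 84.9% with the score as a number, 85.0% within 9 and 10 somites, 89.8% without their high embryos and 99.4% in Smchd1matΔ embryos. Within 9 and 10 somites, leaving out 1 embryo gave 467 to 4531. The slope on the score in the 13 intermediate embryos passed for 24 genes by DESeq2 and 70 without covariates. With the score added, 975 genes had a slope on somite number instead of 2898. The causes were not tested.

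The replicate number as a block gave 1196 calls, 83.7% of them higher. Deviations of same-numbered embryos had a median correlation of 0.0522, against -0.0264 for others, so the numbers were not taken to pair embryos. Ttr lost its somite slope under the block (-0.47).

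The 12 leading higher genes were called in all 22 alternatives, and the 10 lower ones lost the call in 24 of 220 fits, with 10 of these losses in the Smchd1matΔ embryos alone. No direction reversed. Scores from the mean log2 marker level, or without Apob, chose the same 12 high and 12 low embryos. Those fits repeated the main one and could not differ from it. The other alternatives reused embryos in which these genes had been picked, so the tallies are not an independent check. Depth limits low genes most in the shallowest library, where 0 counts allow up to 3.27 CPM, and stage and group cannot be fully told apart.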
